A study of Homo sapiens with 6 samples.

Results

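The mRNAs described here encode the factors that build the small subunit of the human ribosome, those of the small-subunit processome and those of late 40S maturation. The 54 genes were chosen by name, from their known roles, but with earlier results of these data known. All 54 had a row among the 30726 gene symbols of the deposited table. The study sequenced RNA from polysomes, the heavy part of a sucrose gradient in which mRNAs carry several ribosomes, and its stated question is how low oxygen affects translation. It used 3 established breast cancer cell lines, all labelled WT: SUM1315 (triple negative), SKBR3 (luminal, HER2+) and T47D (luminal A). Each line gave 1 library from cells in hypoxia (1% oxygen for 8 hours) and 1 from cells in normoxia (21% oxygen), so that 6 libraries were compared and the lines are the only replication. Before lysis every culture received cycloheximide, an inhibitor that stalls elongating ribosomes. The labels do not say whether the libraries of a line came from cultures grown apart in time. Each line grew in its own medium, with EGF in that of SUM1315 and insulin in those of SUM1315 and T47D, so that line and medium cannot be told apart. RNA from whole lysates was not analysed here, and a smaller amount of an mRNA in the cells cannot be told apart from a smaller share of it on polysomes. Nor can fewer cells with an mRNA be told apart from less of it per cell in such bulk samples.

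Ribosome assembly starts in the nucleolus on a long precursor rRNA. The small-subunit processome forms around its 5' part: the UTP-A and UTP-B modules bind first, the U3 small nucleolar RNA pairs with the precursor, and many further proteins, helicases and nucleases fold, modify and cut the future 18S rRNA. The pre-40S particle that is released is exported to the cytoplasm, where kinases, a GTPase-like factor and the endonuclease NOB1 finish the 18S end. These genes are classical targets of growth signals, MYC among them, and are strongly expressed in dividing cancer cells.

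The values are taken to be RPKM, reads per kilobase of transcript scaled to the library's total reads. Levels can thus be compared between genes, and a change is a change in the share of the sequenced polysome RNA. A step in the values implies that 1 RPKM on a 1 kb transcript stands for 21.7 to 33.4 reads or read pairs, and 3 counts there for 0.0898 to 0.138 RPKM (counting error only). Libraries of 1 line correlated at 0.972 to 0.980 across genes (log2 scale), and libraries of different lines at 0.678 to 0.846. The labelled lines were checked against marker genes. ERBB2, which encodes HER2, stood at 615 and 743 RPKM in SKBR3 and at 5.34 to 8.76 RPKM elsewhere. ESR1, the estrogen receptor, reached 4.54 and 5.18 RPKM in T47D and at most 0.0370 RPKM in the other lines, and VIM, a mesenchymal filament protein, stood at 407 RPKM in normoxic and 1161 RPKM in hypoxic SUM1315 against 4.96 to 9.17 RPKM. The leukocyte and endothelial markers PTPRC and PECAM1 stayed at or under 0.00773 RPKM in all 6 libraries, while the collagen gene COL1A1, listed as a fibroblast marker, reached 91.7 and 119 RPKM in SUM1315. VEGFA, a target of the hypoxia-inducible factors, was higher in hypoxia in each line, at 5.51 against 1.98 RPKM in SUM1315, 10.2 against 2.19 RPKM in SKBR3 and 6.87 against 1.47 RPKM in T47D.

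Under hypoxia 6 of the 54 mRNAs fell on polysomes and 1 rose. The 6 were LTV1, PNO1 and DIMT1 of late 40S maturation, RRP9 of the U3 particle, UTP11 and RRP36, and the 1 was the rRNA acetyltransferase NAT10. Of the 54, 48 reached 1 RPKM in at least 3 libraries and were tested (limma on log2(RPKM + 1), cell line as block, Benjamini-Hochberg over 10253 genes, adjusted p under 0.05). The falls were thus 12.5% of the 48, where 2.26% of all genes tested fell, and the single rise stands beside 4.12% of all genes that rose. Of the other 41, 24 had a fold change below 0 and 17 above it. The median of the 48 log2 fold changes was -0.23, and that of all genes tested -0.01. In all 3 lines the ratio was below 0 for 21 of the 48 (43.8%, where 25.2% of all genes were). It was above 0 in all 3 lines for 10 (where 23.5% of all genes were). The other 17 had mixed signs, as had 5262 of all 10253 genes tested.

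**Figure D1:**
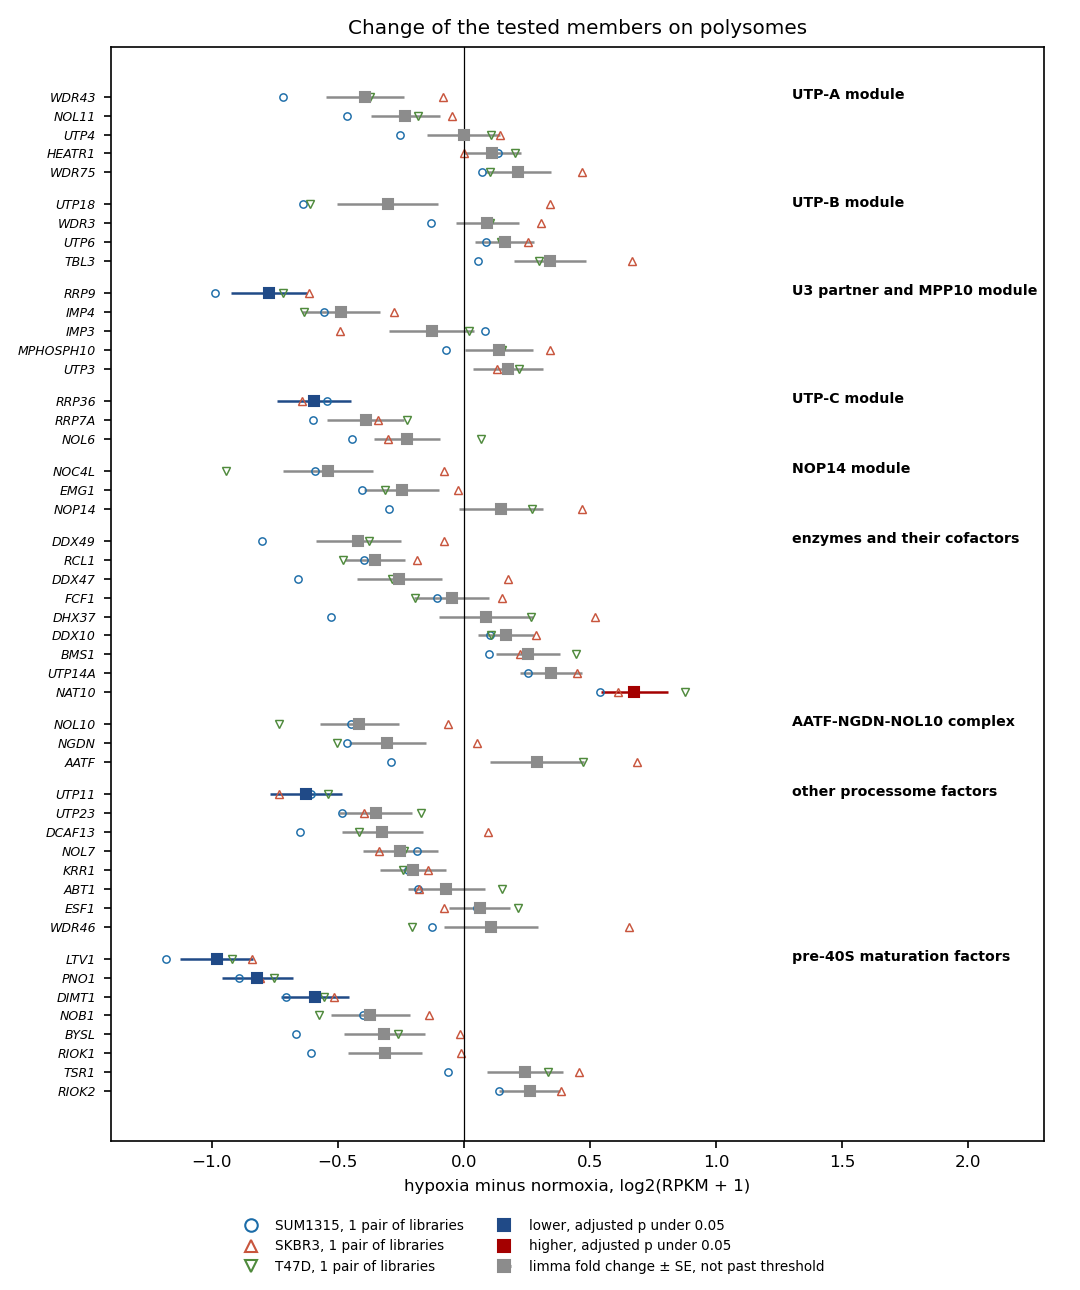
Hypoxia minus normoxia on the log2(RPKM + 1) scale for the 48 tested mRNAs, in 9 functional groups. Squares give the limma fold change with its SE, open symbols the ratio in each line (1 pair of libraries). The 6 blue squares, led by LTV1 at -0.98, and the red one, NAT10 at 0.68, passed the threshold.

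Late 40S maturation held 3 of the 6 falls. LTV1, which sits at the head of the pre-40S particle and leaves it late in maturation, stood in SUM1315 at 52.4 RPKM in normoxia and 22.6 RPKM in hypoxia, in SKBR3 at 8.38 and 4.24 RPKM, and in T47D at 8.05 and 3.79 RPKM. Each line was lower in hypoxia, but the groups overlapped, since SUM1315 in hypoxia lay above both other lines in normoxia. The log2 fold change was -0.98 ± 0.14 (SE, n = 3 lines, limma adjusted p = 0.0069). In GRCh38 the gene spans bases 143843344 to 143863812 of chromosome 6, plus strand.

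PNO1, an RNA-binding protein that shields the 3' end of the 18S precursor until NOB1 cuts it, stood at 26.4 RPKM in normoxia and 13.8 RPKM in hypoxia in SUM1315, at 22.4 and 12.3 RPKM in SKBR3 and at 24.8 and 14.3 RPKM in T47D. The 3 lines lay close together, at 24.5 ± 2.06 RPKM in normoxia and 13.5 ± 1.03 RPKM in hypoxia (mean ± SD, n = 3), and all 3 hypoxic values were below all 3 normoxic ones, as was so for 1.8% of all genes tested. No tested member had all 3 hypoxic values above the normoxic ones, as 2.16% of all genes had. PNO1 fell by 0.82 on the log2 scale (SE 0.14, adjusted p = 0.013). It had the narrowest range of line means of the 54 genes, 0.19 on the log2 scale.

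DIMT1, the methyltransferase that marks adjacent adenosines near the 3' end of 18S rRNA, had 17.9 RPKM in normoxia and 10.6 RPKM in hypoxia in SUM1315, 6.41 and 4.19 RPKM in SKBR3, and 7.38 and 4.71 RPKM in T47D. It was lower in hypoxia in each line, with overlapping groups, at a log2 fold change of -0.59 ± 0.14 (adjusted p = 0.033). DIMT1 did not pass when SUM1315 was left out (adjusted p = 0.091), nor when T47D was (adjusted p = 0.11). The LTV1 and PNO1 calls held with any 1 line left out, at adjusted p of 0.0027 to 0.018 and 0.027 to 0.032.

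The other 5 late factors did not pass. The endonuclease NOB1 (-0.37 ± 0.15, adjusted p = 0.17), the particle component BYSL (-0.31 ± 0.16, adjusted p = 0.24) and the atypical kinase RIOK1 (-0.31 ± 0.15, adjusted p = 0.21) had fold changes below 0. NOB1, the partner of PNO1, was among the more abundant, at 80.6 and 60.9 RPKM in SUM1315, 20.4 and 18.4 RPKM in SKBR3 and 24.6 and 16.2 RPKM in T47D (normoxia and hypoxia in turn). RIOK2, a related kinase, had 0.26 ± 0.12 (adjusted p = 0.20) and the GTPase-like TSR1 0.24 ± 0.15 (adjusted p = 0.33). RIOK2 stood at 4.91 and 5.52 RPKM in SUM1315, 1.00 and 1.61 RPKM in SKBR3 and 1.23 and 1.67 RPKM in T47D, in the same order, higher in hypoxia in all 3 lines with overlapping groups. The median of the 8 late factors was -0.34, the lowest of any functional group except UTP-C.

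**Figure D2:**
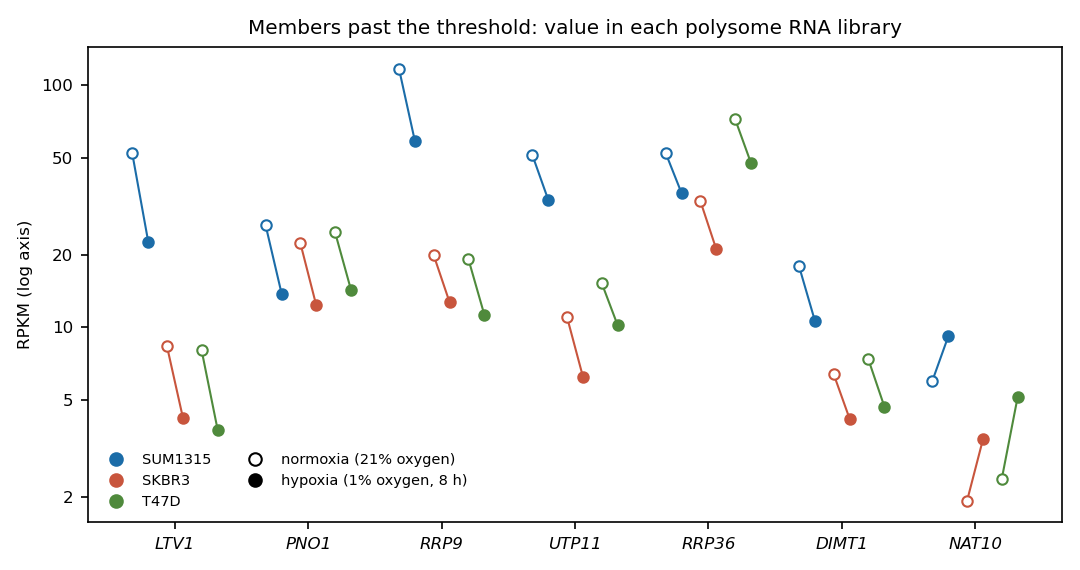
RPKM on a log axis in each of the 6 libraries for the 7 mRNAs that passed the test. Open circles are normoxia and filled circles hypoxia, joined within a line. The first 6 fell in each of the 3 lines and NAT10 rose in each. Of these 7, PNO1 alone shows no overlap between the 2 oxygen levels.

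The promoter windows of the 3 largest falls and of the single rise are shown because all 4 hold the letters CACGTG, the E-box that MYC and related factors bind. They are RefSeq windows (GRCh38.p14) from 250 bases before to 50 after the annotated gene start, printed on the gene's strand, with CACGTG in capitals. Position is counted from the gene start as base 1, with the base before it as -1.
LTV1: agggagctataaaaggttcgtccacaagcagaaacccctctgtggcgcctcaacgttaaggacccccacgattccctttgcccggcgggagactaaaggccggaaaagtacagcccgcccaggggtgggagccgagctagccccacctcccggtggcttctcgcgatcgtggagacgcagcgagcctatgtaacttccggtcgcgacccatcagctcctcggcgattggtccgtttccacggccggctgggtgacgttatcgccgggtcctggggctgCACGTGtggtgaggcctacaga
PNO1: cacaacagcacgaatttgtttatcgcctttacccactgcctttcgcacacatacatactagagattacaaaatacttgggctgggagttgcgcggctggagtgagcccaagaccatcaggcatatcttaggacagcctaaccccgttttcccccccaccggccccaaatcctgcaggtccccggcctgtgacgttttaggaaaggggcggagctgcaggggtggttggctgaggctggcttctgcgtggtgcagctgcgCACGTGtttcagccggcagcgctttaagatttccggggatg
RRP9: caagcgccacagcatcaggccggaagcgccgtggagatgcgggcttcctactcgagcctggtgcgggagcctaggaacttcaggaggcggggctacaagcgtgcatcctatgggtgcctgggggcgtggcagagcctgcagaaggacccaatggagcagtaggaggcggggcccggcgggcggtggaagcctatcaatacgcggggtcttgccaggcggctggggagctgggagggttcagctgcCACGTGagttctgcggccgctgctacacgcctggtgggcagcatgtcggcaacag
NAT10: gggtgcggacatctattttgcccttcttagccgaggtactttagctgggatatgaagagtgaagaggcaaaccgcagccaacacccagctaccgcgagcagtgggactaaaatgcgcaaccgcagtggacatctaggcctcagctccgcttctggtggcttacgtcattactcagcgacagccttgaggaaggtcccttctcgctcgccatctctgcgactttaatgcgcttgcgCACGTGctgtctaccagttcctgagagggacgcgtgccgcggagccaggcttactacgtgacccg

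These windows are chr6:143843088-143843387 (plus strand) for LTV1, chr2:68157638-68157937 (plus) for PNO1, chr3:51941855-51942154 (minus) for RRP9 and chr11:34105379-34105678 (plus) for NAT10. The E-box begins at base 29 in LTV1, 10 in PNO1, -5 in RRP9 and -15 in NAT10. UTP11, RRP36 and DIMT1 hold none in this window. Of the 54 genes 48 matched a window by symbol. Of these windows 21 (43.8%) hold CACGTG, which reads the same on both strands, where 9.28% of 15286 windows of genes in the table do. The 15286 include windows of genes below the expression filter. The 48 windows are not those of the 48 tested members, since PWP2, UTP15, UTP20, UTP25 and WDR36 are among them. The core of the hypoxia response element, ACGTG or GCGTG on either strand, overlaps CACGTG. Outside any CACGTG it occurs in 37 of the 48 windows (77.1%) and in 54.4% of the 15286. A match of letters shows no binding, and the median GC content of the 48 windows, 61.7%, was close to that of all, 63.3%.

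Of the proteins around the U3 RNA, RRP9 fell. RRP9, which binds the U3 RNA itself, stood in SUM1315 at 117 RPKM in normoxia and 58.7 RPKM in hypoxia, in SKBR3 at 19.9 and 12.7 RPKM and in T47D at 19.2 and 11.3 RPKM. It was lower in hypoxia in each line, and SUM1315 lay above both other lines at either oxygen level. The fold change was -0.77 ± 0.15 (adjusted p = 0.021), a call lost without SUM1315 (adjusted p = 0.065). In GRCh38 it spans bases 51933430 to 51941941 of chromosome 3, minus strand. In the MPP10 complex, which docks at the U3-bound precursor, IMP4 had -0.49 ± 0.15 (adjusted p = 0.084), IMP3 -0.13 ± 0.17, MPHOSPH10 0.14 ± 0.14 and the associated UTP3 0.18 ± 0.14. None of these 4 passed. IMP4 had a ratio below 0 in all 3 lines and UTP3 above 0 in all 3. IMP3 had -0.49 in SKBR3 beside 0.09 in SUM1315 and 0.02 in T47D.

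UTP11, a small protein of the processome, stood at 51.6 and 33.6 RPKM in SUM1315, 11.0 and 6.25 RPKM in SKBR3 and 15.3 and 10.2 RPKM in T47D (normoxia and hypoxia in turn). It was lower in hypoxia in each line, with overlapping groups. Its fold change of -0.63 ± 0.14 (adjusted p = 0.033) was past the threshold only with all 3 lines, at adjusted p of 0.064 to 0.079 with any 1 left out. RRP36, counted here with the UTP-C module, had 52.6 RPKM in normoxia and 35.8 RPKM in hypoxia in SUM1315, 33.3 and 21.0 RPKM in SKBR3, and 72.7 and 47.7 RPKM in T47D. T47D was highest at both oxygen levels, the one such case among the 7 called mRNAs. Its fold change of -0.59 ± 0.15 (adjusted p = 0.042) was also lost with any 1 line left out (adjusted p of 0.080 to 0.12). The 2 further UTP-C members did not pass: RRP7A had -0.39 ± 0.15 (adjusted p = 0.15) and NOL6 -0.23 ± 0.13 (adjusted p = 0.30).

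Among enzymes and their cofactors NAT10 alone passed, upward. NAT10, which acetylates cytidines of 18S rRNA, stood in SUM1315 at 6.02 RPKM in normoxia and 9.21 RPKM in hypoxia, in SKBR3 at 1.92 and 3.46 RPKM and in T47D at 2.36 and 5.17 RPKM. It was higher in hypoxia in each line, most in T47D, and the groups overlapped. The fold change was 0.68 ± 0.13 (adjusted p = 0.022), and without T47D the adjusted p was 0.12. In GRCh38 it spans bases 34105602 to 34147670 of chromosome 11, plus strand.

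UTP14A, the cofactor of the helicase DHX37, was next, at 0.35 ± 0.12 (adjusted p = 0.12). It stood at 3.77 and 4.68 RPKM in SUM1315, 2.56 and 3.86 RPKM in SKBR3 and 2.15 and 2.97 RPKM in T47D (normoxia and hypoxia in turn), higher in hypoxia in each line. Its near-copy UTP14C stood at up to 0.314 RPKM, in hypoxic SKBR3, so that reads may have been divided between them. DHX37, which releases the U3 RNA, had 0.09 ± 0.19 (adjusted p = 0.79) and went opposite ways. SUM1315 had 9.05 RPKM in normoxia and 5.98 RPKM in hypoxia, SKBR3 1.45 and 2.52 RPKM, and T47D 1.21 and 1.66 RPKM. Of all tested members it was the one whose SUM1315 ratio stood farthest from the other lines.

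The remaining enzymes did not pass. The DEAD-box helicases DDX49 (-0.42 ± 0.17, adjusted p = 0.15) and DDX47 (-0.26 ± 0.17, adjusted p = 0.35) had fold changes below 0 and DDX10 one above (0.17 ± 0.11, adjusted p = 0.36). DDX47 stood at 18.6 and 11.4 RPKM in SUM1315, 4.43 and 5.12 RPKM in SKBR3 and 2.61 and 1.96 RPKM in T47D, in the order normoxia and hypoxia, so that SKBR3 alone was higher in hypoxia. The GTPase BMS1 had 0.25 ± 0.12 (adjusted p = 0.23) and its partner RCL1 -0.35 ± 0.12 (adjusted p = 0.10). RCL1 ran from 1.72 to 2.45 RPKM in normoxia and from 1.25 to 1.48 RPKM in hypoxia, the other case besides PNO1 with no overlap. RCL1 passed when 1 RPKM was required in all 6 libraries, where fewer genes (7547) were tested. FCF1, a nuclease-fold protein of the processome, had -0.05 ± 0.15.

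No mRNA of the UTP-A and UTP-B modules, the first to bind the precursor, passed with limma, among 9 tested of 12. Of the 9, 2 (WDR43 and TBL3) had an unadjusted p under 0.05, as had 2692 of all 10253 genes tested. In UTP-A, WDR43 had -0.39 ± 0.15 (adjusted p = 0.15) and NOL11 -0.23 ± 0.14, UTP4 -0.00 ± 0.15, the large scaffold HEATR1 0.11 ± 0.11 and WDR75 0.22 ± 0.13. In UTP-B, a set of WD-repeat and helical proteins, TBL3 was highest at 0.34 ± 0.14 (adjusted p = 0.17), with 3.20 and 3.36 RPKM in SUM1315, 1.53 and 3.01 RPKM in SKBR3 and 1.84 and 2.50 RPKM in T47D (normoxia and hypoxia in turn). TBL3 was thus higher in hypoxia in each line, least in SUM1315. UTP6 had 0.16 ± 0.12 and WDR3 0.09 ± 0.12. UTP18 had -0.30 ± 0.20 (adjusted p = 0.36). It was lower in hypoxic SUM1315 (34.9 against 54.8 RPKM) and T47D (9.77 against 15.4 RPKM) and higher in hypoxic SKBR3 (10.2 against 7.82 RPKM). Its SKBR3 ratio differed more from the other lines than that of any other tested member.

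In the NOP14 module of the processome NOC4L had -0.54 ± 0.18 (adjusted p = 0.094), the rRNA methyltransferase EMG1 -0.25 ± 0.15 and NOP14 0.15 ± 0.17. NOC4L stood at 30.6 and 19.9 RPKM in SUM1315, 7.51 and 7.05 RPKM in SKBR3 and 15.4 and 7.53 RPKM in T47D (normoxia and hypoxia in turn). The T47D ratio, -0.94 on the log2 scale, stood farther from the other lines than that of any other tested member, and without SKBR3 NOC4L passed (adjusted p = 0.035). An antisense gene, NOP14-AS1, stood at 1.06 to 4.16 RPKM, and as no source used here gives the strand setting, its reads and those of NOP14 may be mixed. The AATF-NGDN-NOL10 complex was uneven: NOL10 had -0.41 ± 0.16 (adjusted p = 0.13), NGDN -0.30 ± 0.15 (adjusted p = 0.24) and AATF, also known as a transcription cofactor, 0.29 ± 0.19 (adjusted p = 0.34). AATF had 16.6 RPKM in normoxia and 13.4 RPKM in hypoxia in SUM1315, 3.49 and 6.23 RPKM in SKBR3, and 5.04 and 7.39 RPKM in T47D, with SUM1315 alone lower in hypoxia.

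The 7 further processome factors that were tested beside UTP11 lay between -0.35 and 0.11 and none passed. UTP23 had -0.35 ± 0.14 (adjusted p = 0.16), DCAF13 -0.32 ± 0.16 (adjusted p = 0.23), NOL7 -0.25 ± 0.15 (adjusted p = 0.31), KRR1 -0.20 ± 0.13 (adjusted p = 0.35), ABT1 -0.07 ± 0.15, ESF1 0.06 ± 0.12 and WDR46 0.11 ± 0.18. UTP23, NOL7 and KRR1 were below 0 in all 3 lines. NOL7 was the most abundant mRNA of the 54 in every library, at 335 and 295 RPKM in SUM1315, 157 and 124 RPKM in SKBR3 and 124 and 105 RPKM in T47D (normoxia and hypoxia in turn).

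The 6 mRNAs below the filter were UTP15, WDR36, PWP2, DDX52, UTP20 and UTP25, all between 0.0950 and 2.11 RPKM. The first 5 of these reached 1 RPKM in SUM1315 only, and UTP25 did so in hypoxic SUM1315 and hypoxic SKBR3. PWP2, the founding protein of UTP-B, stood at 1.65 and 2.11 RPKM in SUM1315 (normoxia and hypoxia) and at 0.0950 to 0.131 RPKM in the other lines, where by transcript length it rests on as few as 7.55 reads or read pairs. No fold change of these 6 is reported. Named pseudogenes of 6 of the 54 genes were in the table, 19 in all. The highest, RRP7BP, stood at 0.656 to 1.72 RPKM, beside 18.5 to 61.2 RPKM for RRP7A. The next, BMS1P4, reached 0.419 RPKM, beside 1.55 to 3.01 RPKM for BMS1, so that reads of BMS1 may have been divided among its copies.

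By line, SUM1315 showed the broadest shift. Its median ratio over the 48 mRNAs was -0.40 on the log2 scale, beside a median of 0.00 over all genes tested. Of the 48, 36 (75%) were below 0 there, beside 49.1% of all genes. In T47D the median was -0.20 (all genes 0.03), with 27 of 48 (56.25%) below 0, beside 46.8% of all genes. In SKBR3 it was -0.01 (all genes -0.05). There 25 of 48 (52.1%) were below 0, a smaller share than the 56.1% of all genes. Each of these compares 1 library with 1 library, and the difference between lines was not tested. The summed RPKM of the 54 genes was 1414 in normoxia and 1073 in hypoxia in SUM1315, 691 and 592 in SKBR3, and 690 and 573 in T47D.

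The 6 mRNAs that fell were all among the members with shorter coding sequences, under the members' median of 1662 bases. The median of the 9606 tested genes with a coding length was 1290 bases. LTV1 and RRP9, at 1425 bases each, were longer than this. PNO1 (756), UTP11 (759), RRP36 (777) and DIMT1 (939) were shorter. Coding length, the longest coding sequence of each gene in GENCODE release 29, played no part in choosing the genes, and the pattern was noticed in these data. Of the 24 tested members with the shortest coding sequences (552 to 1656 bases), 22 had a fold change below 0 and 6 fell. Of the 24 with the longest (1668 to 6432 bases), 8 were below 0, none fell and NAT10 rose. The medians were -0.35 and 0.11 on the log2 scale. Of all genes tested with a coding length of up to the members' median, 58.9% were below 0 and 3.07% fell, against 40.4% and 1.04% of those above it. Spearman's rho between coding length and fold change was 0.59 across the 48 members (0.40 in SUM1315, 0.64 in SKBR3 and 0.56 in T47D) and 0.16 across 9606 genes. Genes are not independent replicates and share the 6 libraries, so this is a description.

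Length moved with level. The shorter members were also the more abundant (rho of -0.76 between coding length and mean normoxic RPKM). Their median was 19.9 RPKM in normoxia against 3.89 RPKM for the longer ones. The fold change ran with the normoxic level at a rho of -0.60, where it was -0.30 across all 10253 genes tested. The normoxic values enter both the fold change and this level, which alone can push rho below 0. RPKM is already divided by transcript length, so level and coding length are not independent measures. The part of either in the result was not tested. In 1 alternative the trend on coding length was removed from each library. That trend was fitted across all 9606 genes with a length, where rho was 0.16, beside 0.59 among the members. Its removal need not remove the relation among the members. With it removed, LTV1, PNO1, RRP9 and UTP11 fell and NAT10 rose with limma. RRP36 (-0.50, adjusted p = 0.052, beside -0.59 before) and DIMT1 (-0.48, adjusted p = 0.060, beside -0.59) missed the threshold.

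**Figure D3:**
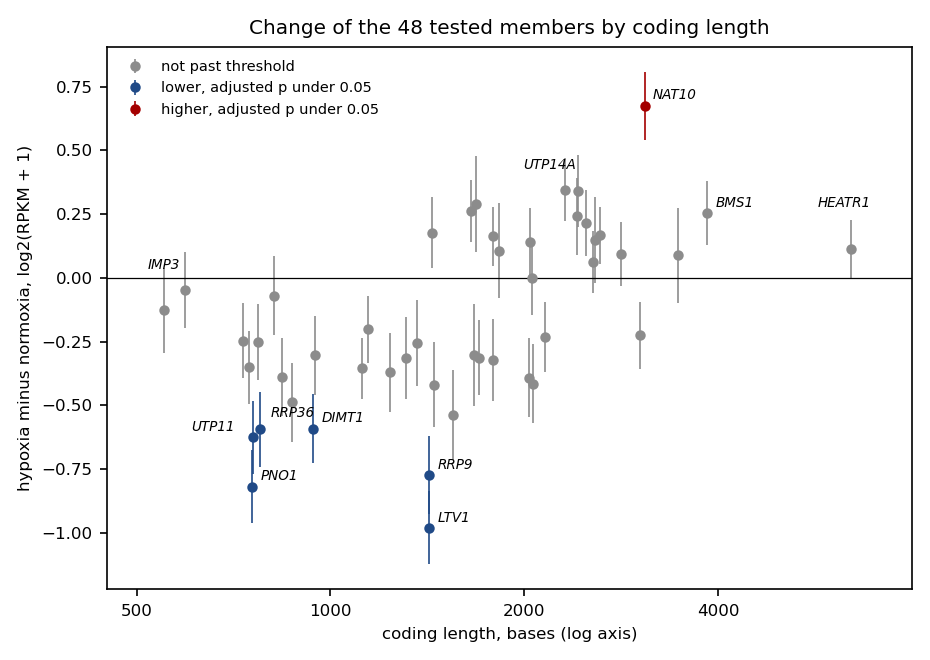
Limma fold change (hypoxia minus normoxia, log2(RPKM + 1), bars are SE) against coding length on a log axis for the 48 tested mRNAs. The 6 that fell (blue) have coding sequences of 756 to 1425 bases, and NAT10 (red), which rose, has 3075.

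The lines differed in how much of these mRNAs was on polysomes. In the same limma fit, with 2 libraries per line (1 per oxygen level), 34 of the 48 were higher in SUM1315 than in SKBR3 (70.8%, where 41.8% of all genes tested were) and 34 were higher in SUM1315 than in T47D (70.8%, where 39% of all genes were). Lower in SUM1315 than in SKBR3 were 3, RRP7A (-1.20), UTP23 (-1.01) and MPHOSPH10 (-0.92), beside 28% of all genes, and none were lower than in T47D, beside 30.2% of all genes. Between SKBR3 and T47D, 12 were higher in SKBR3 (26.6% of all genes) and 5 in T47D (31.2% of all genes). The 2 comparisons with SUM1315 share its libraries. A scaling of each library to the same median moved the median difference of all genes from 0.21 to 0.02 against SKBR3 and from 0.16 to -0.03 against T47D, and 28 and 30 of the 48 were then higher in SUM1315, with 4 and 3 lower. The share of all genes higher in SUM1315 was then 34.5% against SKBR3 and 31.9% against T47D. The counts between SKBR3 and T47D moved when single libraries were left out. The median SKBR3 minus T47D difference of the 48, -0.04 with all 6 libraries, was -0.11 without hypoxic SKBR3 and 0.13 without normoxic SKBR3. It was -0.05 without hypoxic T47D and -0.03 without normoxic T47D. In these fits the lone library of the line is assumed to vary like the others.

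The widest differences between lines were those of LTV1, RRP9, DDX47, UTP11 and UTP18. LTV1 was higher in SUM1315 by 2.34 ± 0.18 on the log2 scale than in SKBR3 and by 2.43 ± 0.18 than in T47D (SE; adjusted p of 1.4e-06 and 1.2e-06). RRP9 was higher there by 2.31 ± 0.19 and 2.41 ± 0.19, UTP11 by 2.19 ± 0.17 and 1.66 ± 0.17, and UTP18 by 2.17 ± 0.25 and 1.75 ± 0.25. For DDX47 the differences were 1.44 ± 0.21 and 2.25 ± 0.21, and SKBR3 stood above T47D by 0.82 ± 0.21 (adjusted p = 0.0066). SKBR3 and T47D did not pass for LTV1 (0.09 ± 0.18, adjusted p = 0.68), RRP9 (0.10 ± 0.19, adjusted p = 0.66) or UTP18 (-0.42 ± 0.25, adjusted p = 0.16). In PNO1 no pair of lines passed, at differences of 0.19, 0.02 and -0.17 with an SE of 0.17.

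**Figure D4:**
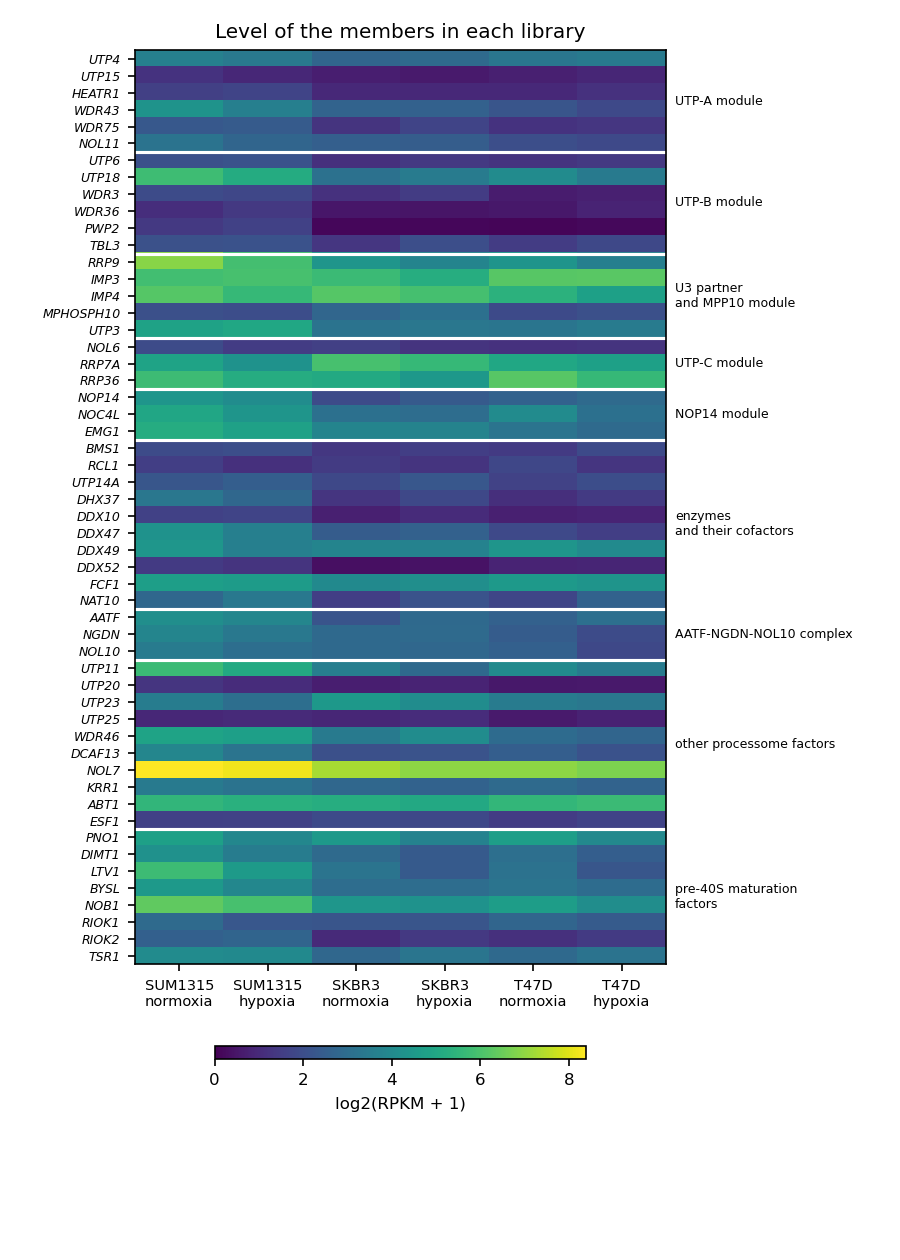
Level of each of the 54 mRNAs in the 6 libraries as log2(RPKM + 1), by functional group. NOL7 is the brightest row in each library. PWP2 is near 0 outside SUM1315.

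Other genes of the pathway gave a mixed picture. Of 30 further factors of 40S production that were tested, 2 rose and none fell with limma. Of all genes tested, 4.12% rose and 2.26% fell. The 30 had 12 fold changes below 0 and 18 above, with a median of 0.02. RIOK3, another RIO kinase of the pre-40S particle, had 2.76 RPKM in normoxia and 6.47 RPKM in hypoxia in SUM1315, 2.51 and 7.10 RPKM in SKBR3, and 1.66 and 3.53 RPKM in T47D, with no overlap. It rose by 0.99 ± 0.14 on the log2 scale (adjusted p = 0.0050). The exonuclease XRN2 had 3.23 and 7.10 RPKM, 7.21 and 15.2 RPKM, and 3.30 and 5.53 RPKM in the same order, and rose by 0.84 ± 0.14 (adjusted p = 0.011). Lowest were C1orf131 (-0.45 ± 0.14, adjusted p = 0.083), a processome protein, and NOP56 (-0.45 ± 0.14, adjusted p = 0.077), a core protein of box C/D particles, of which U3 is one. The 33 mRNAs of small-subunit ribosomal proteins, which are built into the subunit these factors assemble, had 12 falls (36.4%), no rise and a median of -0.56. Of the 33, 29 (87.9%) were below 0 in all 3 lines, beside 25.2% of all genes. Of 61 factors of the large subunit 13 fell (21.3%) and 1 rose, with a median of -0.15. In SKBR3 the median ratio was -0.77 for the ribosomal proteins and -0.01 for the 48 assembly factors of the small subunit, while the medians were -0.52 and -0.20 in T47D and -0.45 and -0.40 in SUM1315. These lists are described by counts and medians, and no difference between them was tested.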

How the data were processed

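Polysome RNA of 3 cell lines at 2 oxygen levels was analysed from 1 deposited table with 1 column per library. The header names no unit, and the deposited values are taken to be RPKM. Multiplied by transcript length, those of single-transcript genes (GENCODE release 29) were whole multiples of a common step in 63.2% to 66.0% of 2488 to 2705 genes in each library, where chance gives 4% (tolerance 0.02 of the step). Reads per kilobase under any 1 scaling per library would give such a step, so this check does not fix how the libraries were scaled. Trimmomatic, HISAT2, SAMtools, Partek, GRCh38 and hg38 are named in the submitters' processing notes. No source used here gives the annotation, strand setting or versions.

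A gene was tested if 3 or more libraries had 1 RPKM or more (10253 genes). The test was limma 3.58.1 (R 4.3.3) on log2(RPKM + 1) (cell line as block, mean-variance trend, two-sided, Benjamini-Hochberg). A fold change on this scale understates that of low genes. Both libraries of a line come from the same line, which is the pairing. Their deviations from the oxygen group means correlated at 0.94 to 0.97 across genes. Residual degrees of freedom were 2 and prior ones 8.02, so an SE and its p-value reflect other genes too. The only replication behind them is the spread between these pairs. The fit was checked on simulated data.

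The genes and lists were chosen with earlier results of these data known. Of 32 further pathway genes listed, 1 had no row under its symbol and 1 was below the filter. Values in every library are given for members past the threshold, the 5 largest rises and falls, the 5 widest ranges of line means and, per line, the member whose ratio differs most from the other lines. Promoter windows and their matches are RefSeq's, gene positions and coding lengths GENCODE's (93.7% of tested genes had a length). Alternatives changed the pseudocount, filter, scaling, moderation, block and lines.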

Additional observations from a re-analysis of the deposited data

Results flagged for a closer look

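In 4 of the members given with all their values, 1 line had a ratio of opposite sign to both other lines. Each line gave 1 pair of libraries, and the difference was not tested. Of the 48 tested members 17 had mixed signs, as had 5262 of all 10253 genes tested. DHX37 and UTP18 also met the rule that names, per line, the member differing most from the other lines. DHX37, a helicase, had a log2 ratio of -0.52 in SUM1315, beside 0.52 for SKBR3 and 0.27 for T47D. UTP18, a UTP-B protein, had 0.34 in SKBR3 and -0.64 and -0.61 in SUM1315 and T47D. For AATF the ratio was -0.29 in SUM1315, beside 0.69 for SKBR3 and 0.47 for T47D. DDX47, a helicase too, had 0.17 in SKBR3 and -0.66 and -0.28 in SUM1315 and T47D.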

How the results depend on the processing

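The 6 falls and 1 rise were counted again under 13 alternatives, of which removal of the coding length trend was chosen after seeing the data. With 1 RPKM required in all 6 libraries 7 fell, RCL1 being the addition, and with a pseudocount of 5 RPKM 3 fell. With limma none passed without the expression filter (16 of 54 had an unadjusted p under 0.05) or with no replicate block (1 of 48 did), in either direction. The cause of the first was not tested. The second leaves the differences between lines in the spread. With a line left out, 2 (without SUM1315) to 5 (without SKBR3) fell and 0 (without T47D) to 1 rose. Without T47D 3 fell, and 11 of 48 had an unadjusted p under 0.05, as had 1673 of all 10253 genes tested. Over all genes, 422 rose and 232 fell. These were 171 and 72 with a pseudocount of 5 RPKM, 179 and 53 without T47D, 499 and 459 with 1 RPKM required in all 6 libraries, and 0 and 0 without the filter (2715 at an unadjusted p under 0.05) or the block (68). The number of members differing between SKBR3 and T47D, 17, was 7 without the expression filter and 10 without a term for oxygen. With 1 library left out, also chosen after seeing the data, it was 9 (without hypoxic T47D) to 18 (without normoxic SUM1315), and 11 without hypoxic SKBR3. In those fits 28 to 38 members differed between SUM1315 and SKBR3 and 30 to 35 between SUM1315 and T47D. The fold change of DHX37, 0.09, turned to -0.011 with a pseudocount of 5 RPKM, -0.030 with the length trend removed, and ran from -0.13 (without SKBR3) through -0.0014 (without T47D) to 0.39 (without SUM1315). Of 195 values of 15 members under the alternatives, 160 kept direction and side of the threshold, 30 kept the direction and lost the call, 1 gained it and 4 were these of DHX37. Depth limits the low members: PWP2 rests on few reads outside SUM1315.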

Other observations

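The relation of fold change to coding length was also looked at in neighbouring lists. Across 61 assembly factors of the large subunit Spearman's rho was 0.69 (0.57 in SUM1315, 0.63 in SKBR3 and 0.69 in T47D), and across 33 small-subunit ribosomal proteins, with a median coding length of 456 bases, it was -0.05. Across all 9606 genes it was 0.15 in SUM1315, 0.24 in SKBR3 and 0.03 in T47D. These are descriptions across genes of the same 6 libraries, with no test.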
